A study of Mus musculus with 2 samples.

Results

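The genes described here carry antigen presentation by MHC class II molecules: H2-Aa, H2-Ab1, H2-Eb1, H2-DMa, H2-DMb1, Cd74, Ciita and Ctss. They were chosen by symbol, 8 of the 55357 genes counted, and each symbol matched 1 row in both libraries. The cells came from tumours of RM-1, a mouse prostate cancer line, grown under the skin of C57BL/6 mice; the tumours' genotype is labelled WT. One library was made from tumours treated with vehicle and one from tumours treated with RP-6306, an inhibitor of the kinase PKMYT1, both collected at day 10 after treatment, and both were 10x Genomics 3′ single-cell libraries. The design text speaks of 2 tumour-bearing mice and does not say how many entered each library. With 1 library per treatment there is no test between treatments: every interval below is a 95% interval for counting error alone, and "higher" or "lower" compares these 2 libraries.

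A class II molecule is a pair of an α and a β chain that shows peptides taken up from outside the cell to CD4 T cells. The chains assemble in the endoplasmic reticulum around the invariant chain (Cd74), which fills the groove, the lysosomal protease cathepsin S (Ctss) trims the invariant chain down to a short plug, and the H2-DM dimer (H2-DMa with H2-DMb1) exchanges that plug for a peptide. Transcription of the chains, of Cd74 and of H2-DM depends on the coactivator CIITA (Ciita), which binds factors sitting on the X and Y boxes of their promoters and is constitutive in dendritic cells and inducible by interferon gamma in macrophages. C57BL/6 mice make the I-A molecule (H2-Aa with H2-Ab1) but not I-E, because the promoter of the α chain gene H2-Ea is deleted in this strain, so the H2-Eb1 transcript has no partner there.

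The 5 chain genes lie on chromosome 17 of GRCm38 within the class II region, and GENCODE M21 gives all 8 genes as protein coding. H2-DMa spans chr17:34119541-34139101 on the plus strand, H2-DMb1 chr17:34153072-34160230 on the plus strand, H2-Ab1 chr17:34257689-34269419 on the plus strand, H2-Aa chr17:34282744-34287823 on the minus strand and H2-Eb1 chr17:34305867-34316674 on the plus strand. Ciita spans chr16:10480059-10528418 and Ctss chr3:95526786-95556403, both on the plus strand. Exons of H2-DMa overlap exons of Brd2, which lies on the opposite strand, and exons of Ciita overlap those of Dexi, also on the opposite strand. The overlap with Brd2, which ends at chr17:34122634, holds the starts of both genes, while the libraries are of the 3′ kind. The sources used here do not give how strand was handled in counting. Whether reads of the opposite strand entered these counts is thus not known here.

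The promoters are shown because H2-Aa, H2-Eb1 and H2-DMb1 carry their short motifs at nearly the same place. The windows searched for H2-DMa and Ctss do not hold these motifs. RefSeq promoter entries (GRCm38.p6) matched 5 of the 8 genes: H2-Aa, H2-Eb1, H2-DMa, H2-DMb1 and Ctss, and not H2-Ab1, Cd74 and Ciita. The 160 bases before the start were searched on both strands for TGATTGG (the Y box), TGATGATG (letters that H2-Eb1 and H2-DMb1 share upstream of it), TGACGTCA (the cyclic AMP response element, which the X box can resemble) and an interferon response element (GAAA, any 2 bases, GAAA). Capitals mark these matches, no 2 of which overlapped.
H2-Aa, chr17:34287824-34287983, minus strand: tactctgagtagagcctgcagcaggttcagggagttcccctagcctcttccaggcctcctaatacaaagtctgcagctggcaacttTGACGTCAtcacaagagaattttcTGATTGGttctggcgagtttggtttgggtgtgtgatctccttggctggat
H2-Eb1, chr17:34305707-34305866, plus strand: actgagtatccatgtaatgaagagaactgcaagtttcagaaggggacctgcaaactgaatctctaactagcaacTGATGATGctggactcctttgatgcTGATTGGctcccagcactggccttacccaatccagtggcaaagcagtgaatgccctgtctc
H2-DMb1, chr17:34153031-34153190, plus strand: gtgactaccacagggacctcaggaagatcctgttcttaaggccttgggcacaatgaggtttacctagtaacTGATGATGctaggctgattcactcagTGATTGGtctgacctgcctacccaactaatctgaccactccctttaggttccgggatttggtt
H2-DMa (the first of its RefSeq starts), chr17:34122672-34122831, plus strand: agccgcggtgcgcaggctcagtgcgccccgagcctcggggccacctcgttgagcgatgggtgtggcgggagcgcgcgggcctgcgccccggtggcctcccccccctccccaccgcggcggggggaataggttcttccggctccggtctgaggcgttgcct
Ctss, chr3:95526626-95526785, plus strand: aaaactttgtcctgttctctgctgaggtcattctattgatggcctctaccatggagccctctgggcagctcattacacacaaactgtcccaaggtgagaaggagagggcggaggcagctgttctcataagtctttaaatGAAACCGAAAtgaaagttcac
In H2-Aa the Y box began 50 bases before the start and TGACGTCA 24 bases further upstream. In H2-Eb1 and H2-DMb1 the Y box began 61 and 63 bases before the start, and TGATGATG 25 and 26 bases further upstream. Of 32851 RefSeq promoter windows of the same length, 5.93% held TGATTGG, 0.810% TGATGATG, 1.39% TGACGTCA and 1.72% the interferon response element, and 0.134% held TGATTGG together with TGATGATG or TGACGTCA. The H2-DMa window held none of the 4 motifs, nor did that of its other RefSeq start, and it was 76.2% G and C. It lies next to chr17:34122634, where Brd2 begins on the opposite strand. Both windows lie inside the span of H2-DMa, and the rest of that span was not searched. Whether H2-DMa has these motifs elsewhere is thus not known from these windows. The motifs were chosen after the sequences were seen, and a match is a description of letters only.

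Cells were put in classes by how many markers of a type had at least 1 unique molecular identifier (UMI, the tag that counts an RNA molecule once), and the class II genes were not among those markers. Of 9540 vehicle and 10308 RP-6306 cells kept, 231 and 254 were macrophage-gated, 126 and 146 monocyte-gated, 22 and 33 dendritic-gated and 7708 and 8092 tumour-gated. By the genes the gates used, macrophage-gated cells held the complement gene C1qa at 3007 and 3299 UMIs per 1000000 UMIs of the class (CPM; not scaled by gene length, so that levels are compared for the same gene only), against 2.61 and 18.9 CPM in monocyte-gated cells and 0 and 2 UMIs in dendritic-gated cells. Dendritic-gated cells had the dendritic growth factor receptor Flt3 at 110.3 and 103.8 CPM, which had 0 UMIs in macrophage- and monocyte-gated cells, and tumour-gated cells had the keratin Krt8 at 1001 and 761 CPM. The gates cut a range: 27 and 31 leukocytes had 3 macrophage markers, 1 short of the gate, and 26 and 28 of the macrophage-gated cells had exactly 4. The libraries held 100815022 and 106465655 UMIs and shared 34 cell barcodes, of which 6 were in the macrophage, monocyte or dendritic gates.

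H2-Aa, H2-Ab1 and H2-Eb1, called surface chains below, were highest in dendritic-gated cells of both libraries. They were lower in macrophage-gated and lower again in monocyte-gated cells. The name is a label for the 3 genes only, as the H2-Eb1 transcript has no partner in this strain. H2-Aa, the I-A α chain, stood at 7182 CPM in the vehicle and 7028 CPM in the RP-6306 library in dendritic-gated cells, at 2281 and 2134 CPM in macrophage-gated cells, and at 1169.7 and 857 CPM in monocyte-gated cells. H2-Ab1, the I-A β chain, stood at 4935 and 4919.7 CPM in dendritic-gated, 1161 and 1366 CPM in macrophage-gated, and 741 and 467 CPM in monocyte-gated cells. H2-Eb1, the I-E β chain, stood at 7292 and 7348 CPM in dendritic-gated, 1849 and 2016 CPM in macrophage-gated, and 786 and 694 CPM in monocyte-gated cells. In each library the 3 classes kept this order for all 3 chains with no overlap of the counting intervals. Dendritic-gated over macrophage-gated ratios ran from 3.15 (interval 2.90 to 3.42) for H2-Aa in the vehicle library to 4.25 (3.83 to 4.71) for H2-Ab1 in the same library. The partner of H2-Eb1 was absent: H2-Ea had 0 UMIs in dendritic-, macrophage-, monocyte- and tumour-gated cells of both libraries.

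H2-DM followed the same order with smaller steps. H2-DMa, the α chain of this peptide-loading dimer, stood at 712 and 495 CPM in dendritic-gated, 304 and 289 CPM in macrophage-gated, and 222 and 210.1 CPM in monocyte-gated cells. H2-DMb1, its β chain, stood at 461 and 431 CPM in dendritic-gated, 254 and 299.9 CPM in macrophage-gated, and 256 and 139 CPM in monocyte-gated cells. In the vehicle library macrophage- and monocyte-gated cells could not be ordered for H2-DMb1 (monocyte over macrophage ratio 1.01, interval 0.795 to 1.27), while in the RP-6306 library the ratio was 0.465 (0.347 to 0.612). H2-DMb2, a neighbouring near-identical β chain gene, had 43 and 32 UMIs in macrophage-gated cells against 323 and 405 for H2-DMb1, so the split of reads between these copies is uncertain.

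Cd74, the invariant chain, lies at chr18:60803848-60812652 on the plus strand. It stood at 9188 and 9272 CPM in dendritic-gated, 3514 and 3846 CPM in macrophage-gated, and 2188 and 1402 CPM in monocyte-gated cells. The dendritic-gated level was 2.61 times the macrophage-gated level in the vehicle library (interval 2.43 to 2.81) and 2.41 times in the RP-6306 library (2.26 to 2.57). Ciita, the coactivator, was sparse: it had 15 and 30 UMIs in dendritic-gated, 30 and 29 in macrophage-gated and 8 and 4 in monocyte-gated cells, or 150.5 and 239.6 CPM, 23.6 and 21.5 CPM, and 20.9 and 9.44 CPM. Its dendritic-gated over macrophage-gated ratios, 6.37 (3.19 to 12.2) and 11.2 (6.47 to 19.3), were above 1 in both libraries.

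Ctss, cathepsin S, had another order from the chains. It stood at 752 and 607 CPM in dendritic-gated cells, below the 1305 and 1619 CPM of macrophage-gated and the 1379 and 1473 CPM of monocyte-gated cells. The dendritic-gated over macrophage-gated ratio was 0.577 (0.451 to 0.727) in the vehicle and 0.375 (0.294 to 0.471) in the RP-6306 library. Macrophage- and monocyte-gated cells lay close to each other for Ctss, with monocyte over macrophage ratios of 1.06 (0.956 to 1.17) and 0.910 (0.831 to 0.995).

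**Figure D1:**
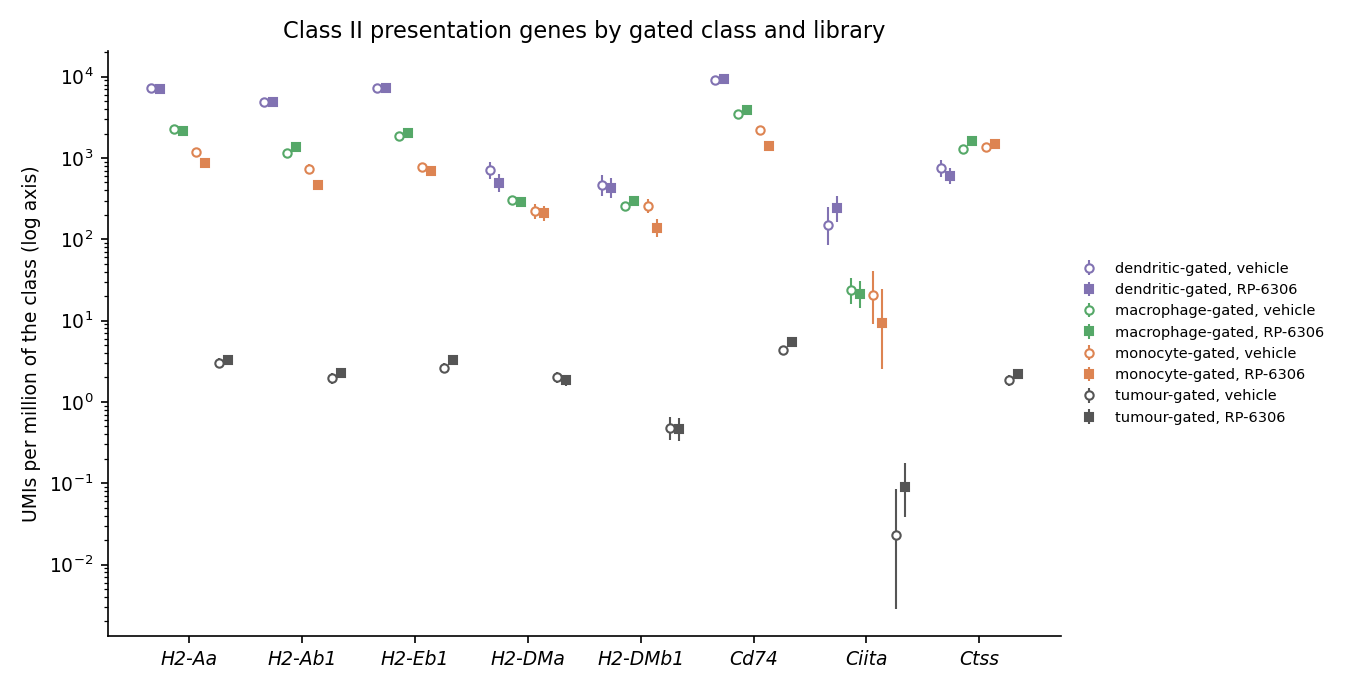
Level of the 8 genes (UMIs per 1000000 UMIs of the class, log axis) in dendritic-, macrophage-, monocyte- and tumour-gated cells; open circles are the vehicle library, filled squares the RP-6306 library, and bars are 95% exact Poisson intervals. The chains, Cd74 and Ciita are highest in dendritic-gated cells (Cd74 9188 and 9272 CPM), Ctss is lowest there among the 3 leukocyte classes, and tumour-gated cells lie at 5.52 CPM or less.

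The share of cells with a UMI was taken after each cell was thinned to 2000 UMIs and shallower cells were left out. That left 223 and 240 macrophage-, 103 and 107 monocyte-, 20 and 29 dendritic- and 7633 and 7978 tumour-gated cells. Cd74 was seen in 85.0% and 82.8% of dendritic-gated, 74.0% and 82.5% of macrophage-gated, 54.4% and 43.0% of monocyte-gated and 0.943% and 1.14% of tumour-gated cells. Where most cells have a UMI the share cannot follow the level: in the RP-6306 library Cd74 was seen in 82.8% (64.2 to 94.2) of dendritic-gated and 82.5% (77.1 to 87.1) of macrophage-gated cells. H2-Ab1 was seen in 80.0% and 75.9% of dendritic-gated, 56.1% and 66.7% of macrophage-gated and 34.0% and 26.2% of monocyte-gated cells. Fibroblast-gated cells, which should lack the invariant chain, showed Cd74 in 0% and 1.96% of 42 and 51 thinned cells, at median depths of 6212 and 6448 UMIs against 5278 and 5036 in macrophage-gated cells. Without thinning, Cd74 was seen in 80.5% and 85.8% of macrophage-gated and in 4.65% and 5.77% of fibroblast-gated cells. H2-Ab1 stood apart from the other members in fibroblast-gated cells, with 9 and 6 UMIs in 7 and 6 cells where H2-Aa had 1 and 1.

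T and NK-gated cells, which make little class II in mice, had 13 surface-chain UMIs in the vehicle and 83 in the RP-6306 library, or 228 and 691 CPM, a ratio of 3.03 (1.68 to 5.93). In the RP-6306 library 40 of the 83 lay in 2 of the 51 cells, and 39 of the 51 cells had none. H2-DMb1 and Ciita had 0 UMIs in these cells of both libraries. The median T and NK-gated cell had 1383 and 1664 UMIs, fewer than in macrophage-, monocyte-, dendritic- and tumour-gated cells.

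In macrophage-gated cells no member differed by more than 1.24 times between the libraries. That was cathepsin S: Ctss was at 1305 CPM with vehicle and 1619 CPM with RP-6306, a ratio of 1.24 (1.16 to 1.32). H2-Ab1 (ratio 1.18, 1.10 to 1.26), H2-DMb1 (1.18, 1.02 to 1.37), Cd74 (1.09, 1.05 to 1.14) and H2-Eb1 (1.09, 1.03 to 1.15) were also higher in the RP-6306 library. H2-Aa was lower (0.936, 0.888 to 0.985), and the intervals of H2-DMa (0.951, 0.824 to 1.10) and Ciita (0.909, 0.527 to 1.57) took in 1. The 8 genes together came to 10691 and 11590.3 CPM, a ratio of 1.08 (1.06 to 1.11). On the log2(CPM + 1) scale none of the 8 reached a difference of 0.5, against 5.73% of 5968 genes with at least 50 UMIs that were higher by that much and 4.93% that were lower. The median difference was 0.13 over the members and 0.0034 over all those genes. H2-Aa changed sides with the measure: its log2 difference was -0.10 from summed UMIs, 0.055 from the mean of per-cell CPM and 0.032 with 1 marker fewer per gate, while the 8 members together lay between 0.07 and 0.26.

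More macrophage-gated cells of the RP-6306 library carried the chains, in shares where H2-Aa went against its CPM. After thinning, H2-Ab1 was seen in 56.1% of vehicle cells (interval 49.3 to 62.7) and 66.7% of RP-6306 cells (60.3 to 72.6), and H2-Eb1 in 54.7% (47.9 to 61.4) and 64.6% (58.2 to 70.6). H2-Aa was seen in 61.0% and 68.8%, but since its CPM was lower with RP-6306 no order is read from that share. H2-DMa was seen in 39.9% and 38.8%, and Ciita in 5.83% and 4.58%.

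**Figure D2:**
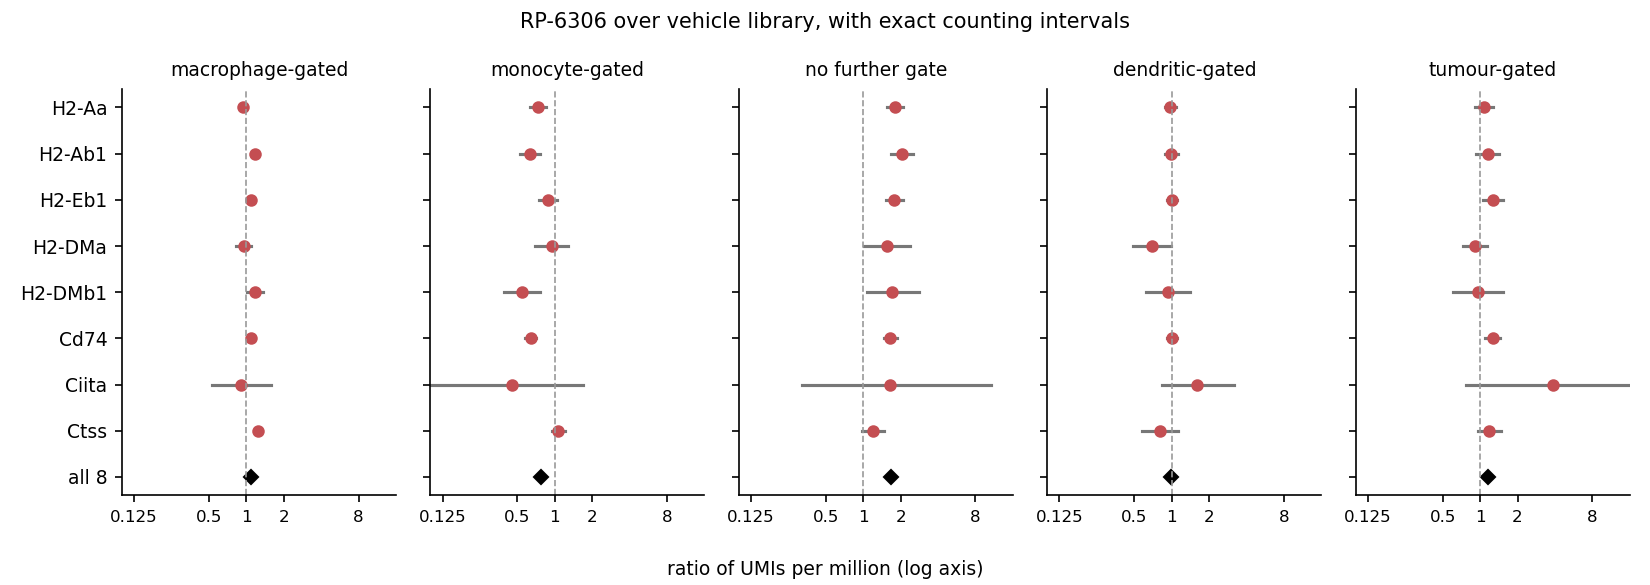
Ratio of the RP-6306 to the vehicle library (UMIs per 1000000, log axis) for each member and for all 8 summed, in macrophage-, monocyte-, dendritic- and tumour-gated cells and in leukocytes that passed no further gate; lines are 95% exact intervals for counting error, and the widest Ciita intervals run off the axis. Monocyte-gated cells lie below 1 in sum (0.777) and leukocytes of no further gate above it (1.68), while dendritic-gated cells lie at 0.989.

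In monocyte-gated cells most members were lower in the RP-6306 library. Cd74 stood at 2188 CPM with vehicle and 1402 CPM with RP-6306, a ratio of 0.641 (0.576 to 0.713). H2-Ab1 (0.630, 0.523 to 0.759), H2-DMb1 (0.544, 0.387 to 0.760) and H2-Aa (0.733, 0.636 to 0.843) were lower as well. H2-Eb1 (0.883, 0.750 to 1.04), H2-DMa (0.947, 0.695 to 1.29) and Ctss (1.07, 0.950 to 1.20) had intervals that took in 1, and Ciita had 8 and 4 UMIs. H2-Ab1, H2-DMb1 and Cd74 passed a log2 difference of -0.5, that is 3 of the 7 members with 50 UMIs, where 8.20% of 2500 genes were lower by that much and 7.88% higher. The median log2 difference was -0.45 over these 7 members and -0.0051 over all genes with 50 UMIs, and 6 of the 7 members were lower where 51.0% of all those genes were.

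The sum of the 8 members lay between -0.50 and -0.14 on the log2 scale with other filters, gates and means. The monocyte-gated difference further depended on where the gate fell. The 64 vehicle and 66 RP-6306 leukocytes that passed no further gate went the other way: Cd74 was at 2195 and 3611 CPM there, a ratio of 1.65 (1.46 to 1.86), and the 8 members together had a ratio of 1.68 (1.57 to 1.80). The dendritic, macrophage and monocyte marker lists were all higher there in sum. The dendritic list stood at 274 and 425 CPM with 12 of 22 markers at 0 in each library, and Ccr7 had 0 and 14 UMIs. The macrophage list stood at 1596 and 2102 CPM with none of 10 at 0, and C1qa at 79.8 and 168 CPM. The monocyte list stood at 5043 and 6283 CPM. Of its genes Lyz2 was higher, at 1845 and 2924 CPM, and Ccr2 lower, at 224 and 158 CPM. Their part in the ratio was not tested. When both sets of cells were summed, an alternative chosen after seeing the data, the log2 difference of the 8 members was 0.10 in place of -0.36, that of Cd74 -0.05 and that of H2-DMb1 -0.30.

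Ly6c2, the marker of inflammatory monocytes and one of the markers of the monocyte gate, was seen in more monocyte-gated cells of the RP-6306 library. It had a UMI in 16 of 126 vehicle cells (12.7%, 7.44 to 19.8) and in 34 of 146 RP-6306 cells (23.3%, 16.7 to 31.0). Cells with a Ly6c2 UMI had the 8 members at 2264 and 2487 CPM, and those without at 7416 and 6043 CPM. Its part in the difference between libraries was not tested. Surface-chain UMIs were concentrated: 75 of 126 and 95 of 146 cells had none, while 16 and 13 cells with at least 20 UMIs held 816 of 1033 and 608 of 855 surface-chain UMIs.

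In dendritic-gated cells the surface chains and Cd74 were near equal between libraries. H2-Aa had a ratio of 0.979 (0.886 to 1.08), H2-Ab1 of 0.997 (0.884 to 1.12), H2-Eb1 of 1.01 (0.913 to 1.11) and Cd74 of 1.01 (0.925 to 1.10). H2-DMa was lower in the RP-6306 library, at 712 and 495 CPM from 71 and 62 UMIs (0.695, 0.486 to 0.992), and was the 1 member of 7 past a log2 difference of -0.5, where 14.6% of 642 genes were lower by that much and 12.3% higher. Ciita had 15 and 30 UMIs, a ratio of 1.59 (0.830 to 3.18), and Ctss 75 and 76 UMIs, a ratio of 0.807 (0.579 to 1.13). The 22 and 33 cells were a mixture of dendritic types: at least 3 markers of type 1 conventional cells were seen in 6 and 9, and of mature, Ccr7-bearing cells in 6 and 14. Ccr7 itself stood at 381 and 887 CPM. With so few cells the log2 difference of the 8 members, -0.02, ranged from -0.19 to 0.26 over other filters, gates and means.

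Tumour-gated cells had every member at 5.52 CPM or less. Cd74 stood at 4.36 CPM with vehicle and 5.52 CPM with RP-6306, H2-Aa at 3.04 and 3.28, H2-Eb1 at 2.61 and 3.31, H2-Ab1 at 1.96 and 2.25, Ctss at 1.86 and 2.20 and H2-DMb1 at 0.479 and 0.462 CPM. Ciita had 2 UMIs in 7708 vehicle and 8 in 8092 RP-6306 cells. Cd74 (ratio 1.27, 1.10 to 1.45) and H2-Eb1 (1.27, 1.06 to 1.52) were higher in the RP-6306 library, and none of the 7 members with 50 UMIs reached a log2 difference of 0.5, where 0.785% of 15423 genes were higher by that much and 0.441% lower. At these levels the log2(CPM + 1) scale understates a change, and the ratios carry the comparison.

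Other than H2-DMa and Ciita, the members in tumour-gated cells were at 0.124% to 0.189% of their macrophage-gated level, and 3 macrophage genes that tumour cells are not known to make at 0.112% to 0.159%. Cd74 in tumour-gated cells was 0.124% and 0.144% of its macrophage-gated level, H2-Aa 0.133% and 0.154%, and Ctss 0.142% and 0.136%. The macrophage genes C1qa, Lyz2 and Tyrobp lay at 0.126% and 0.112%, 0.136% and 0.159%, and 0.122% and 0.116%. No tumour-gated cell had 5 surface-chain UMIs or more, the highest being 3 and 4, in 614 of 7708 and 733 of 8092 cells with any. The gates themselves partly set the percentages of Tyrobp and C1qa. Tyrobp is a leukocyte marker, of which a tumour-gated cell had at most 1, and C1qa is a marker of the macrophage gate. Lyz2, a monocyte marker, was used by neither gate. Free RNA of other cells was not removed, and its part in these values was not tested beyond this comparison, which cannot measure it.

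H2-DMa was the exception among the members in tumour-gated cells. It stood at 2.01 CPM (172 UMIs) with vehicle and 1.84 CPM (163 UMIs) with RP-6306, or 0.662% (0.550 to 0.794) and 0.636% (0.526 to 0.766) of its macrophage-gated level, above the intervals of H2-Aa, H2-Ab1, H2-Eb1, H2-DMb1, Cd74 and Ctss. H2-DMa made up 12.3% and 9.69% of the member UMIs in tumour-gated cells and 2.84% and 2.49% in macrophage-gated cells. Of the 166 and 160 tumour-gated cells with an H2-DMa UMI, 15 and 18 had a surface-chain UMI, and 12.7% and 11.2% had a UMI of a myeloid marker, against 13.8% and 13.5% of all tumour-gated cells. Brd2, whose exons overlap H2-DMa on the other strand, stood at 496 and 473 CPM in tumour-gated and 203 and 205.1 CPM in macrophage-gated cells, and its part in the H2-DMa count was not tested.

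**Figure D3:**
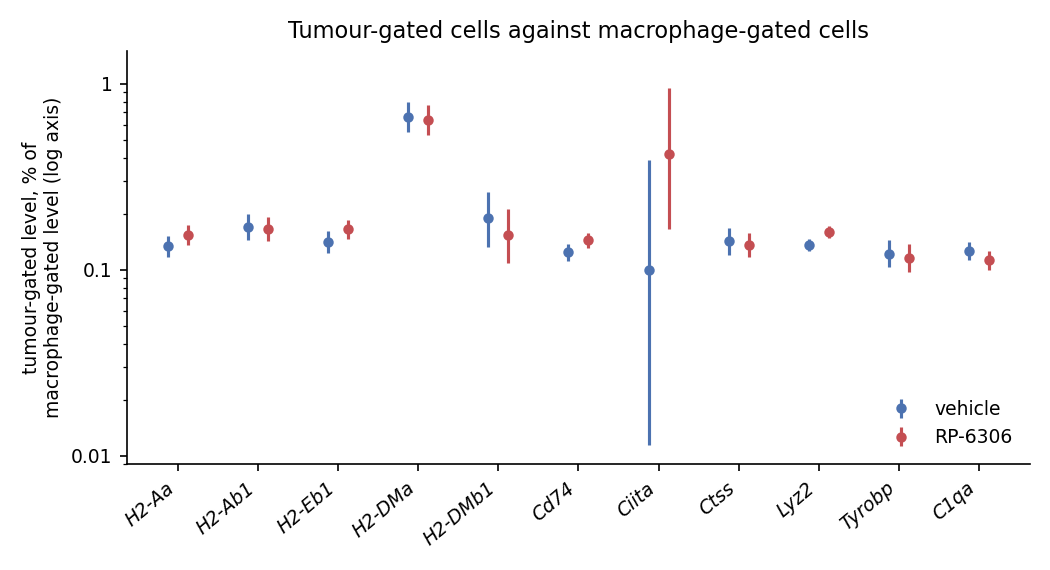
Level in tumour-gated cells as a percentage of the level in macrophage-gated cells of the same library (log axis), for the 8 members and 3 macrophage genes; bars are 95% exact intervals for counting error. H2-DMa lies at 0.662% and 0.636%, Cd74 at 0.124% and 0.144%, C1qa at 0.126% and 0.112%, and Ciita rests on 2 and 8 UMIs.

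Macrophage-gated cells differed widely among themselves in the surface chains. The summed CPM of H2-Aa, H2-Ab1 and H2-Eb1 per cell ran from 0 to 23544 in the vehicle library, with a median of 2115 and an upper quartile of 9714, and from 0 to 33882 in the RP-6306 library, with a median of 4338 and an upper quartile of 9930. No surface-chain UMI was found in 68 of 231 vehicle cells (29.4%, interval 23.6 to 35.8) and in 47 of 254 RP-6306 cells (18.5%, 13.9 to 23.8). The upper quartiles were thus near equal, while the median and the share of cells with none differed. The 8 members also varied with the number of macrophage markers, without a steady trend. They stood at 9081 and 16196 CPM in cells with 4 of the 10 markers and at 16069.9 and 13508 CPM in cells with 6. In the 14 and 14 cells with all 10 they stood at 2200 and 4795 CPM.

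**Figure D4:**
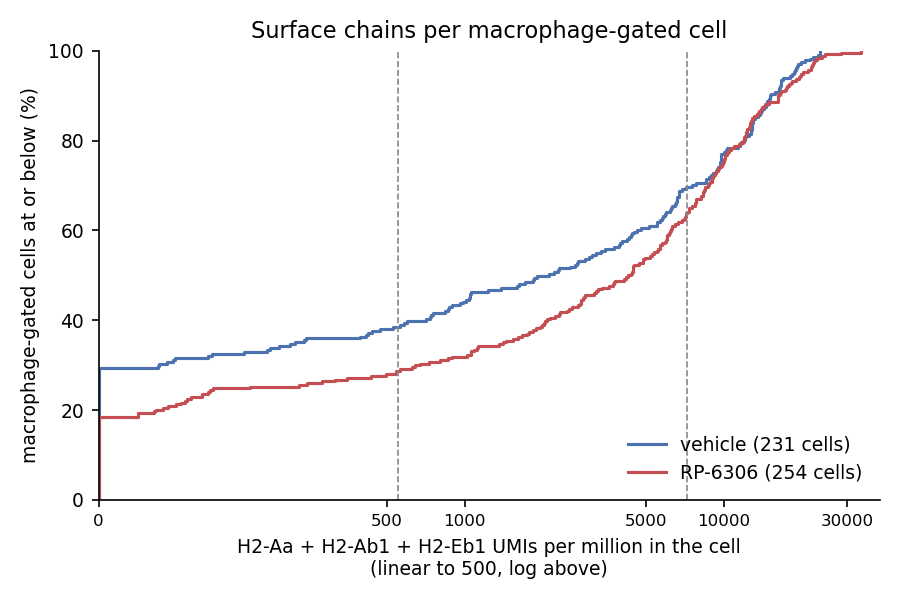
Share of macrophage-gated cells at or below a given summed CPM of H2-Aa, H2-Ab1 and H2-Eb1 (linear to 500, log above) in each library, with dashed lines at the cuts between the low, middle and high fractions. The curves start at 29.4% of vehicle and 18.5% of RP-6306 cells with no UMI and come close at the upper quartiles, 9714 and 9930 CPM.

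Cutting both libraries together into equal tertiles of that sum gave a class II low fraction at or below 551 CPM and a high fraction from 7213 CPM on. The fractions are parts of a range and no types: 8 of 485 cells lay within 10% of the lower cut and 26 within 10% of the upper one, with values of 545 and 563 CPM next to the lower cut. The low fraction held 89 of 231 vehicle cells (38.5%, interval 32.2 to 45.1) and 73 of 254 RP-6306 cells (28.7%, 23.3 to 34.7), a difference of -9.79 points (-18.1 to -1.38). The high fraction held 70 cells (30.3%, 24.4 to 36.7) and 92 cells (36.2%, 30.3 to 42.5), a difference of 5.92 points (-2.49 to 14.2) whose interval took in 0. Median depth was similar in all of them, at 5317 and 5523 UMIs in the low and 5258.5 and 4593 UMIs in the high fraction.

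Members that were not used for the cut differed between the fractions in the same direction in both libraries. Because the cells were cut by the surface chains these are descriptions, with no test. Cd74 stood at 293 CPM in the low and 7864 CPM in the high fraction with vehicle, and at 337 and 7848 CPM with RP-6306. H2-DMb1 stood at 38.4 and 535 CPM with vehicle and at 61.9 and 605 CPM with RP-6306, and H2-DMa at 123 and 535 CPM and at 89.4 and 543 CPM. Ciita had 0 UMIs in the low fraction of both libraries and 18 and 23 in the high fraction, and the exact intervals of its ratio of high to low began at 5.79 and 5.77. Ctss differed least, with 1181 CPM in the low and 1558 CPM in the high fraction with vehicle (ratio 1.32, 1.17 to 1.48) and 1309 and 1941 CPM with RP-6306 (1.48, 1.33 to 1.65).

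Within the fractions the interval of the ratio between libraries took in 1 for Cd74, H2-DMa and H2-DMb1, and left it out for Ctss in the high fraction. In the high fraction Cd74 had a ratio of RP-6306 to vehicle of 0.998 (0.950 to 1.05), H2-DMa of 1.01 (0.837 to 1.23), H2-DMb1 of 1.13 (0.938 to 1.37) and Ctss of 1.25 (1.12 to 1.39). In the low fraction Cd74 had a ratio of 1.15 (0.908 to 1.46), H2-DMa of 0.725 (0.472 to 1.10) from 61 and 39 UMIs, H2-DMb1 of 1.61 (0.864 to 3.07) from 19 and 27 UMIs, and Ctss of 1.11 (0.987 to 1.25).

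Resident-like genes were lower in the high fraction and monocyte genes mostly higher. Of 2510 genes with at least 50 UMIs in each library, 24 were higher in the high fraction by a log2 difference of 1 or more in both libraries and 45 lower. The 24 include H2-Aa, H2-Ab1 and H2-Eb1, whose difference was fixed by the cut, and the members Cd74, H2-DMb1 and H2-DMa. The scavenger receptor gene Lyve1 stood at 164 CPM in the low and 0 in the high fraction with vehicle, and at 195 and 2.30 CPM with RP-6306. Folr2, a folate receptor of resident macrophages, stood at 178 and 5.33 CPM and at 197 and 25.3 CPM, and Mrc1, the mannose receptor, at 768 and 288 CPM and at 851 and 329 CPM. The resident-like list summed to 1348 CPM in the low and 319.6 CPM in the high fraction with vehicle and to 1527 and 396 CPM with RP-6306, and all 4 of its genes with 50 UMIs were lower in the high fraction of each library. The monocyte list summed to 1482 CPM in the low and 2261 CPM in the high fraction with vehicle and to 800.3 and 1599.9 CPM with RP-6306, where 4 of 5 and 4 of 4 genes were higher. Ccr2, the receptor that draws monocytes into tissue, stood at 127 and 434 CPM with vehicle and at 50.5 and 283 CPM with RP-6306, and the integrin gene Itgax, a marker shared with dendritic cells, at 40.4 and 114.5 CPM and at 48.2 and 129 CPM.

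Among markers of other cell types, the dendritic marker sum was not higher in the high fraction. The gate limits such sums beforehand. Cells with at least 3 markers from most of the dendritic list had been left out of the macrophage gate. So had cells that passed the T and NK, neutrophil or fibroblast limit. The sums therefore cannot tell whether either fraction would hold such cells without the gate. It had a median over cells of 356 and 425 CPM in the low and 215 and 356 CPM in the high fraction, and the medians of the tumour, T and NK, neutrophil and fibroblast sums were 0 in both. The macrophage marker sum was higher in the low fraction, at medians of 13951 and 13706 CPM against 10006 and 9773 CPM in the high one. Monocyte marker sums had medians of 7370.5 and 6584 CPM in the low and 6616 and 6046 CPM in the high fraction.

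The genes of antigen processing differed among themselves between the fractions: of 11 with 50 UMIs in the vehicle library 4 were higher and 7 lower in the high fraction, and of 10 in the RP-6306 library 4 were higher and 6 lower. Ctsb and Ctsd, cathepsins of general protein breakdown, were lower in the high fraction, Ctsb at 2582 and 1305 CPM in low and high with vehicle and 2633 and 1549 CPM with RP-6306, and Ctsd at 859 and 399 CPM and at 897 and 327 CPM. Lgmn, the protease legumain, stood at 1682 and 754 CPM and at 1786 and 923 CPM. Ctsh was higher in the high fraction, at 433 and 618 CPM and at 454 and 573 CPM, as were Psap, at 2925 and 3364 CPM and at 2814 and 3373 CPM, and Cst3, the cathepsin inhibitor cystatin C, at 770.2 and 1001 CPM and at 699 and 937 CPM. Ifi30, the thiol reductase that opens disulfide bonds of antigens, was near equal at 1306 and 1217 CPM and at 1181 and 1163 CPM. Arg1, the arginase of suppressive macrophages, stood at 786 and 282 CPM and at 555 and 203 CPM.

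**Figure D5:**
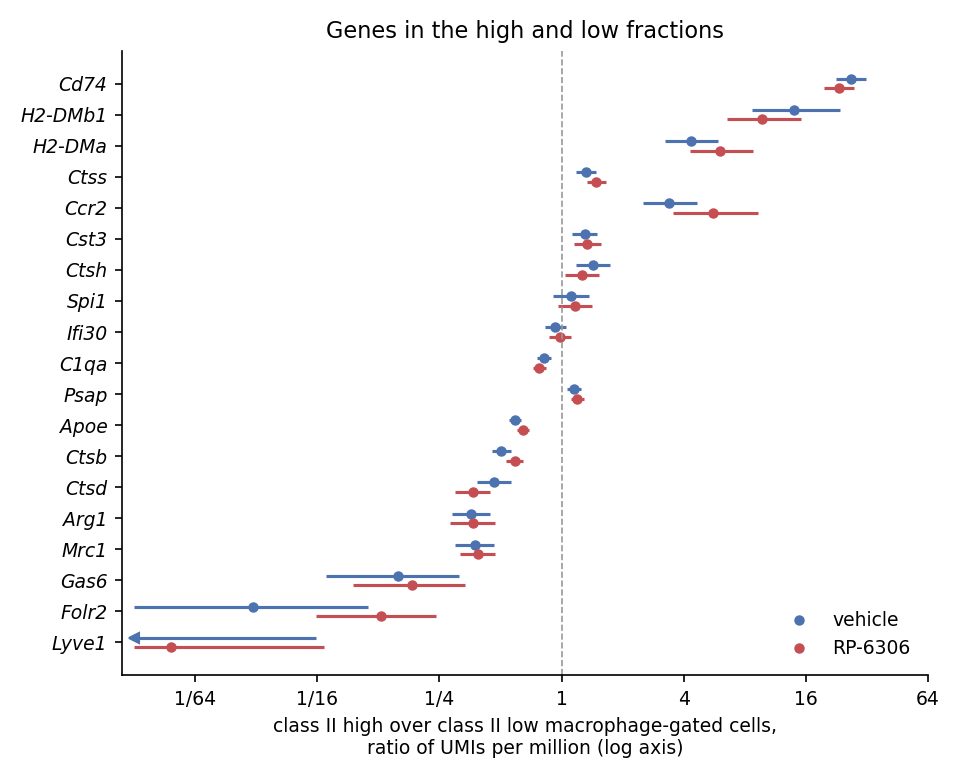
Ratio of the class II high to the class II low macrophage-gated cells (UMIs per 1000000, log axis) for the members not used in the cut, other than Ciita, and for other genes picked after their values were seen, with 95% exact intervals for counting error; the arrow marks Lyve1, at 0 UMIs in the high fraction of the vehicle library, and the lower ends of the Folr2 and Lyve1 intervals are cut at the axis. Cd74 lies at 26.8 and 23.3, H2-DMb1 at 13.9 and 9.78, Ctss at 1.32 and 1.48, and Arg1 at 0.359 and 0.365.

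Across single macrophage-gated cells thinned to 2000 UMIs, the surface chains and Cd74 varied together. Spearman's rho of H2-Aa with H2-Eb1 was 0.888 over 223 vehicle and 0.869 over 240 RP-6306 cells, and of H2-Aa with Cd74 0.882 and 0.844. H2-DMb1 went with H2-Ab1 at 0.527 and 0.467, and H2-DMa with H2-Ab1 at 0.337 and 0.360. Ctss showed values of 0.0841 and 0.229 with H2-Aa, and with Ciita at 13 and 11 thinned cells with a UMI nothing is read from its values. The cells of a library share its preparation, thinning leaves few H2-DM molecules per cell, and these are descriptions with no test.

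The genes around the pathway, taken from 11 lists of 100 measured genes, included interferon lists that were higher with RP-6306 in macrophage-gated cells. In macrophage-gated cells all 9 type I interferon response genes with 50 UMIs were higher in the RP-6306 library, 8 of them by a log2 difference of 0.5 or more, with a median of 0.88. Isg15, a ubiquitin-like interferon-induced protein, stood at 91.3 and 185.8 CPM (ratio 2.04, 1.63 to 2.56), and Bst2, tetherin, at 207 and 345 CPM (1.67, 1.43 to 1.95). Of the interferon gamma response genes 6 of 6 were higher, 3 of them past 0.5, with a median of 0.43: the chemokine Cxcl10 stood at 357 and 524 CPM (1.47, 1.30 to 1.65). The 8 members had a median of 0.13 beside these.

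Genes that control class II transcription or process antigen showed no common direction in macrophage-gated cells. Of 12 control genes with 50 UMIs, 7 were higher and 5 lower in the RP-6306 library, with a median of 0.05. Spi1, the myeloid factor PU.1, stood at 441 and 492 CPM (1.11, 0.994 to 1.25), Irf8 at 287 and 301 CPM (1.05, 0.909 to 1.21), and Creb1, which binds the X box, at 69.3 and 37.8 CPM (0.545, 0.378 to 0.778). Of 11 processing genes 4 were higher and 7 lower, none past 0.5, with a median of -0.02. Marchf1, the ligase that removes class II from the surface, had 78 and 70 UMIs (0.844, 0.603 to 1.18), Lgmn stood at 1189.9 and 1345 CPM (1.13, 1.06 to 1.21), and Psap, the precursor of the saposins, at 3095 and 3063 CPM (0.990, 0.947 to 1.03). Of 4 costimulation genes 2 were higher and 2 lower, among them Cd86 (1.10, 0.901 to 1.34) and Cd83 (0.799, 0.644 to 0.989), and all 4 partner genes with 50 UMIs were lower, Cxcr4 at 191 and 135 CPM (0.709, 0.582 to 0.862) and the CD74 ligand Mif at 666 and 621 CPM (0.933, 0.847 to 1.03).

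Lists of macrophage states stood beside these values. With RP-6306 all 5 resident-like genes with 50 UMIs were higher (median 0.21), 6 of 9 Arg1 and hypoxia genes lower with a median of -0.08, and 4 of 6 monocyte genes lower with a median of -0.47, of which 3 passed -0.5. Fn1, fibronectin, stood at 1232 and 716 CPM, and Ccr2 at 253 and 159 CPM. Of the complement and lipid genes 4 of 7 were higher with a median of 0.13, among them Apoe at 3707 and 4517 CPM. Their part in the class II values was not tested.

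In monocyte- and tumour-gated cells the interferon lists were higher in sum with RP-6306 as well. In monocyte-gated cells 4 of 4 type I interferon genes with 50 UMIs were higher, with a median of 0.92, and Cxcl10 stood at 99.2 and 316 CPM. Monocyte genes were higher there for 6 of 8, Ly6c2 at 86.2 and 191 CPM and Plac8 at 1794 and 2901 CPM. In tumour-gated cells 11 of 11 type I interferon genes were higher with a median of 0.73, among them the antiviral enzyme gene Rsad2 at 22.0 and 56.8 CPM, and 11 of 12 interferon gamma genes with a median of 0.46. The X box factor genes stood in tumour-gated cells beside these, Rfx5 at 7.37 and 8.59 CPM and Rfxap at 54.4 and 51.5 CPM, with Ciita at 0.0234 and 0.0901 CPM. In dendritic-gated cells no interferon list gene had 50 UMIs, and the type I list went the other way, at 1043 and 575 CPM in sum (0.551, 0.402 to 0.752). Cxcl10 had 27 and 7 UMIs there (0.206, 0.0759 to 0.486), and the maturation marker Cd83 stood at 622 and 902 CPM (1.45, 1.06 to 2.01).

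The genes whose pattern over classes was most like the mean of H2-Aa, H2-Ab1 and H2-Eb1 were sought by Pearson's r of log2(CPM + 1) over 7 classes in 2 libraries, 14 points, among 15978 genes. Cd74 led with 0.993, and H2-DMa followed the surface chains with 0.971, Ctss with 0.939, Ciita with 0.897 and H2-DMb1 with 0.871. Outside the members the closest were Pik3ap1 (0.971), an adaptor of phosphoinositide signalling, Bcl2a1d (0.966), a survival protein with near-identical copies, Plek (0.954), Ncf1 (0.953), a subunit of the phagocyte oxidase, and Il10ra (0.953), a chain of the interleukin-10 receptor. Points of 1 library share its depth and free RNA, and most of the spread lies between leukocytes and other cells. H2-Oa and H2-Ob, the chains of the H2-DM inhibitor H2-O, had 10 and 7 and 7 and 14 UMIs in dendritic-gated cells and at most 2 in macrophage-gated cells of either library.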

How the data were processed

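The authors deposited, for each of 2 libraries, a matrix of raw UMI counts per gene and cell barcode with no normalization, which the file headers say was written by Cell Ranger 7.1.0. Version 2.1.1 of that tool and build mm10 appear in the submitters' processing notes, and which run made the counts was not resolved. Samples were grouped by the treatment in their labels, 1 library per group, so no test was made.

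Cells with at least 500 genes and at most 15% mitochondrial UMIs were kept. A leukocyte had at least 4 of 9 leukocyte markers, and a macrophage-gated cell at least 4 of 10 macrophage markers. A monocyte-gated cell had at least 4 monocyte and at most 2 macrophage markers. A dendritic-gated cell had at least 3 dendritic and likewise at most 2 macrophage markers. A tumour-gated cell had at least 2 of 8 tumour and at most 1 leukocyte marker. These numbers were set after the gating markers had been seen, and the limit of 3 fibroblast markers in leukocytes after member values had been seen. No doublet caller was run: cells passing the gates of 2 lineages were left out (14 and 9 among leukocytes, 63 and 66 leukocyte with tumour).

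UMIs were summed per class and library and scaled to CPM with python 3.11.15, numpy 2.4.6, scipy 1.17.1 and pandas 2.3.3. Log2 differences are RP-6306 over vehicle on log2(CPM + 1), for genes with at least 50 UMIs over both libraries. Intervals, at 95%, are exact Poisson for levels, Clopper-Pearson for shares, exact conditional for ratios and combined Wilson intervals for differences of shares; they cover counting error only. Shares were also taken after thinning cells to 2000 UMIs. The calculations were tested on simulated data.

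Named genes are the 8 members, from each of 11 lists genes among the 3 most abundant and the 3 with the largest log2 difference in a class at 50 UMIs, and for likeness the 5 other genes with the highest r. Rfx5, Rfxap, H2-Oa, H2-Ob, Cxcl10 in dendritic-gated cells and the genes described between macrophage fractions were chosen after their values were seen. The members, gene lists and motifs were chosen with earlier results of these data known. Alternatives were other gates, cell filters, thinning depths, pseudocounts, UMI minimums, folds and means, and 2 added after seeing the data.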

Additional observations from a re-analysis of the deposited data

Results flagged for a closer look

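H2-Ab1, H2-DMb1 and Cd74 were higher with RP-6306 in macrophage-gated and lower in monocyte-gated cells. H2-Eb1 and Ctss were higher in macrophage-gated cells, and their intervals took in 1 in monocyte-gated cells (0.883, 0.750 to 1.04, and 1.07, 0.950 to 1.20). H2-Aa was lower in both, but in macrophage-gated cells it changed sides under other settings. For H2-DMa and Ciita the intervals took in 1 in both classes. The log2 difference in macrophage-gated cells minus that in monocyte-gated cells was 0.90 for H2-Ab1, 1.11 for H2-DMb1, 0.77 for Cd74 and 0.48 for the 8 members together. With 1 library per treatment these differences between classes were not tested.

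Leukocytes that passed no further gate, 64 and 66 cells that enter no main comparison, had Cd74 at 2195 CPM in the vehicle and 3611 CPM in the RP-6306 library, a ratio of 1.65 (1.46 to 1.86). The dendritic marker list stood at 274 and 425 CPM in these cells and the macrophage list at 1596 and 2102 CPM. The monocyte list stood at 5043 and 6283 CPM. Ccr7 had 0 and 14 UMIs and C1qa stood at 79.8 and 168 CPM, while Ccr2 was lower, at 224 and 158 CPM. The part of these markers was not tested.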

How the results depend on the processing

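Of 296 log2 differences of single members under other settings, 259 lay within the counting interval of the main value, 33 outside it and 4 changed the sign of a difference whose interval left out 0. H2-Aa in macrophage-gated cells was 0.032 with 1 marker fewer per gate and 0.055 as a mean of per-cell CPM. With monocyte-gated cells and leukocytes of no gate summed, H2-Aa was 0.15, H2-Ab1 0.14 and the 8 members together 0.10. The 8 members together in macrophage-gated cells were 0.068 with 1 more marker per gate, 0.21 with 1 fewer, 0.15 without the 2% of cells with most UMIs and 0.26 as a mean of per-cell CPM, against 0.12. In monocyte-gated cells they were -0.14 with 1 marker fewer, -0.50 with at least 1000 genes and at most 10% mitochondrial UMIs, -0.26 without the 2% and -0.15 as a per-cell mean, against -0.36. In dendritic-gated cells they were -0.12 with 1 more marker, 0.26 with 1 fewer, 0.070 with the stricter cell filter, -0.19 without the 2%, -0.16 as a per-cell mean and 0.18 when leukocytes were left out from 5 fibroblast markers on, against -0.02. At a log2 difference of 1, 0 members were lower in monocyte-gated cells, against 3 at 0.5, and 0 in dendritic-gated cells, against 1. At a minimum of 10 or of 1 UMI, 1 member was higher in dendritic-gated cells. The causes were not tested.

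The difference in the share of low-fraction cells stayed between -11.6 and -7.31 points over 6 settings, and that of high-fraction cells between 3.14 and 8.48 points. No paired analysis was possible because each group holds 1 library. Depth limits Ciita, with 30 UMIs or fewer in each leukocyte class, and every dendritic-gated value, which rests on 22 and 33 cells.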
